A study of Homo sapiens with 8 samples.

Results

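The AP-1 transcription factor family was followed across AsPC-1 and PANC-1 cells, both established human pancreatic cancer lines. Its 7 members were taken by gene name, FOS, FOSB, FOSL1 and FOSL2 of the Fos family and JUN, JUNB and JUND of the Jun family, from the 62649 genes of the expression table. All 7 were among the 19122 genes with at least 1 TPM (a transcript count scaled for gene length and to a fixed library total) in 2 or more libraries, the genes that were tested. Wild-type cells of each line spent 3 days in medium thickened with methylcellulose, as spheroids, and then received vehicle, 10 µM roseoflavin, 1 nM trametinib or both compounds for 24 h. Roseoflavin is an analogue of riboflavin, the vitamin from which flavin cofactors are made, and trametinib is an inhibitor of the kinases MEK1 and MEK2, which activate ERK. Polyadenylated RNA was sequenced from 1 library for each line and treatment, 8 in all.

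AP-1 is a dimer of basic leucine zipper proteins. Jun proteins pair with one another or with Fos proteins, whereas Fos proteins need a Jun partner, and the dimers bind the sequence TGACTCA and close relatives of it. FOS, FOSB, JUN and JUNB are immediate-early genes whose RNA appears quickly and briefly after a growth signal. FOSL1 is induced later and is held up by continued signalling through RAS and ERK, and its protein, FRA-1, has been studied widely in carcinomas driven by mutant RAS, among them those of the pancreas. FOSL2 encodes FRA-2, and JUND is made at a steadier level in many cells.

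Each library summed to 1000000 TPM, which keeps no record of depth, so no counting error could be attached to a value. Transcripts of the mitochondrial genome made up 22.8% to 25.6% of each PANC-1 library and 41.2% to 44.1% of each AsPC-1 library, so every nuclear gene was scaled down more in AsPC-1. Of 6 epithelial markers, keratin 8 was high in both lines, at 1786 to 2128 TPM in AsPC-1 and 852 to 990 TPM in PANC-1. Keratins 18 and 19 were also high, at 879 TPM or more in every library. Keratin 7 was low, at 4.39 to 7.74 TPM in AsPC-1 and 3.26 to 3.84 TPM in PANC-1. EPCAM and E-cadherin (CDH1) were at 1224 to 1485 and 56.1 to 78.7 TPM in AsPC-1, against 14.5 to 16.8 and 5.02 to 6.56 TPM in PANC-1. Of 9 markers of leukocytes, endothelium, fibroblasts and normal pancreas, 8 were under 1 TPM in every AsPC-1 library and 7 in every PANC-1 library. The exceptions were CD68 in both lines and the collagen gene COL1A1 in PANC-1, and the summed level of the 9 was 108 to 115 TPM in AsPC-1 and 228 to 239 TPM in PANC-1. Their part in the results was not tested.

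The members did not have the same rank in the 2 lines. In AsPC-1, the order by median TPM was JUNB (167), JUND (125), FOSL1 (93.7), JUN (52.4), FOS (39.7), FOSL2 (26.5) and FOSB (5.27). The ranges over the 4 libraries overlapped between JUN and FOS and between FOS and FOSL2, and no other neighbours overlapped. In PANC-1, the order was FOSL1 (174), JUNB (142), JUN (134), JUND (81.5), FOSL2 (30.6), FOS (8.18) and FOSB (1.82). Only JUNB and JUN overlapped there. TPM is scaled by transcript length, which allows this comparison of levels between genes.

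**Figure D1:**
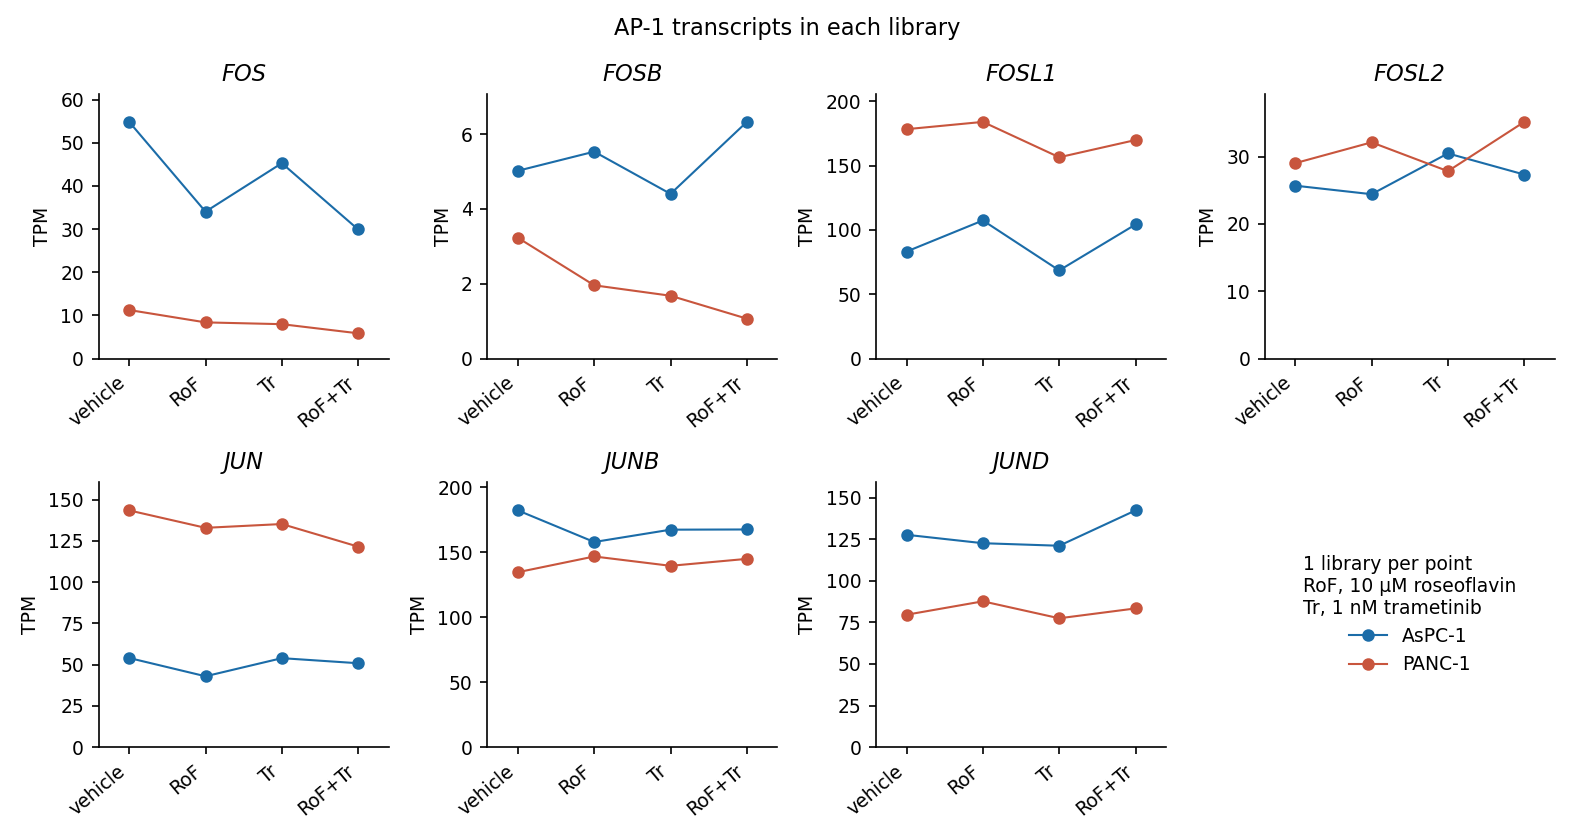
TPM of each AP-1 member (1 panel per gene, linear axis from 0) in the 8 libraries, with 1 point per library, by treatment (RoF, roseoflavin; Tr, trametinib), joined within a line; there are no replicates and no error bars. FOS lies at 29.9 to 54.8 TPM in AsPC-1 and at 5.86 to 11.3 TPM in PANC-1, and in each line its vehicle library is the highest; JUN is higher in every PANC-1 library than in any AsPC-1 library.

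FOS (ENSG00000170345, GRCh38 chromosome 14, 75278774 to 75282230, forward strand, 3 exon blocks) encodes c-Fos. In AsPC-1 it was at 54.8 TPM with vehicle, 34.0 with roseoflavin, 45.3 with trametinib and 29.9 with both. In PANC-1 the same libraries were at 11.3, 8.39, 7.97 and 5.86 TPM. The lines did not overlap, and in each of them vehicle was highest and the combination lowest. FOSB (ENSG00000125740, chromosome 19, 45467995 to 45475179, forward strand) encodes the closest relative of c-Fos and overlaps ERCC1 on the opposite strand. It was near the lower end of detection, at 5.02, 5.53, 4.40 and 6.32 TPM in AsPC-1 and 3.23, 1.96, 1.68 and 1.07 TPM in PANC-1, in the same order of treatments. In AsPC-1 the combination was highest and in PANC-1 it was lowest.

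The sequence before the start of FOS and FOSB is shown because the motif TGACGT, the core of the site of the CREB and ATF factors, lies at nearly the same distance from the RefSeq start of each, and that of JUND because it holds the full palindrome TGACGTCA. These stretches come from RefSeq on GRCh38.p14, run 5′ to 3′ on the gene's strand and end before the start annotated by RefSeq and by GENCODE, and capitals mark TGACGT on either strand, TGACGTCA and the TATA box motif TATAAA. GENCODE places the start of FOS further upstream than RefSeq does, so only the first 196 of the 250 bases before its RefSeq start are shown, and its TATAAA lies in the part left out.
FOS, chr14:75278578-75278773, forward strand: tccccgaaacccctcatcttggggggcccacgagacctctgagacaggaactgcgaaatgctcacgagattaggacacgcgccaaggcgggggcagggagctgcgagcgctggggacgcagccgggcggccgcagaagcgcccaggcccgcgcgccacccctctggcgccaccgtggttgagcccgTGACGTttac
FOSB, chr19:45467746-45467994, forward strand: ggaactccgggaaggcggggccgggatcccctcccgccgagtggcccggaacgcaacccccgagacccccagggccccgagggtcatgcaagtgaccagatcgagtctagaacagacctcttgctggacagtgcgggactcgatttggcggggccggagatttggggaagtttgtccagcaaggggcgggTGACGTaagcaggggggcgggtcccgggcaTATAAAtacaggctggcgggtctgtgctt
JUND, chr19:18281623-18281872, reverse strand: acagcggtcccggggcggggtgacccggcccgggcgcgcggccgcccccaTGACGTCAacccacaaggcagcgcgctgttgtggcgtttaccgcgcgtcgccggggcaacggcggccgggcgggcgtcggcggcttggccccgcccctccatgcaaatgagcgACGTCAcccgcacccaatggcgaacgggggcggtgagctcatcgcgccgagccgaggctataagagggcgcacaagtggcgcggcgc

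Of the 7 members, 6 had an entry among the RefSeq promoters, all but FOSL1. Over the 250 bases before each RefSeq start, searched on both strands, TGACGT was found in 4 of the 6 and in 7.10% of 35116 promoters. It began 64 bases before the RefSeq start in FOS, 60 in FOSB and 66 in FOSL2, and JUND held it inside TGACGTCA (1.65% of promoters) and again closer to the start on the other strand. JUN had TGACATCA, a variant to which Jun and ATF2 dimers are known to bind, beginning 67 bases before its start, a motif held by 2.37% of promoters. TATAAA was found in FOS, FOSB and JUNB and in 10.7% of promoters. The AP-1 motif TGACTCA was in 0 of the 6 windows and in 4.20% of all promoters. A match in a window describes its letters only.

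FOSL1 (ENSG00000175592, chromosome 11, 65892049 to 65900573, reverse strand, 4 exon blocks) was the most abundant Fos member in all 8 libraries. It was at 83.2, 107, 68.5 and 104 TPM in AsPC-1 with vehicle, roseoflavin, trametinib and both, and at 178, 184, 156 and 170 TPM in PANC-1. Both AsPC-1 libraries with roseoflavin were above both without it. FOSL2 (ENSG00000075426, chromosome 2, 28392448 to 28417312, forward strand), which overlaps the antisense gene FLJ31356, was at 25.7, 24.4, 30.5 and 27.3 TPM in AsPC-1 and 29.0, 32.1, 27.8 and 35.1 TPM in PANC-1. The 2 lines overlapped for this gene alone among the 7.

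JUN (ENSG00000177606, chromosome 1, 58780788 to 58784327, reverse strand, a gene of 1 exon) encodes c-Jun, the main target of the JNK kinases. It was at 54.0, 42.9, 53.9 and 50.8 TPM in AsPC-1 and at 143, 133, 135 and 121 TPM in PANC-1, with no overlap between lines. JUNB (ENSG00000171223, chromosome 19, 12791496 to 12793315, forward strand, 1 exon) can restrain c-Jun at some promoters and overlaps HOOK2 on the opposite strand. It was at 182, 158, 167 and 167 TPM in AsPC-1 and 135, 147, 139 and 145 TPM in PANC-1. JUND (ENSG00000130522, chromosome 19, 18279760 to 18281622, reverse strand, 1 exon) was at 128, 123, 121 and 142 TPM in AsPC-1 and 79.6, 87.7, 77.5 and 83.4 TPM in PANC-1. Both were higher in every AsPC-1 library than in any PANC-1 library.

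Across the 4 treatments, FOS was among the more variable genes of both lines and JUNB was not. The standard deviation of log2(TPM + 1) of FOS was above that of 98.1% of the genes averaging 10 TPM or more in AsPC-1 and of 97.5% of those in PANC-1. FOSL1 stood above 96.5% and 75.5% of them, and JUNB above 43.4% and 38.2%. FOSB stood above 88.2% in AsPC-1 and 98.5% in PANC-1, although its own mean was below 10 TPM, where values vary more. The same limit holds for FOS in PANC-1, where its mean was 8.37 TPM, below that of the genes it was ranked against.

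In TPM as deposited the summed level of the 3 Jun genes overlapped between the 2 lines and that of the 4 Fos genes was higher in PANC-1, whereas after rescaling to the genes outside the mitochondrial genome the Fos sums overlapped and the Jun sum was higher in AsPC-1. The Jun sum was 323 to 364 TPM in AsPC-1 and 350 to 367 TPM in PANC-1. The Fos sum was 149 to 171 TPM in AsPC-1 and 194 to 226 TPM in PANC-1. Rescaled, the Jun sum was 578 to 618 in AsPC-1 and 453 to 481 in PANC-1, and the Fos sum 257 to 306 and 258 to 298. The share of each gene in its sum does not depend on the scaling. FOSL1 gave 46.1% to 62.7% of the Fos RNA in AsPC-1 and 80.1% to 81.2% in PANC-1, and FOS gave 17.8% to 32.5% against 2.76% to 5.07%. JUN gave 13.3% to 15.7% of the Jun RNA in AsPC-1 and 34.7% to 40.1% in PANC-1.

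**Figure D2:**
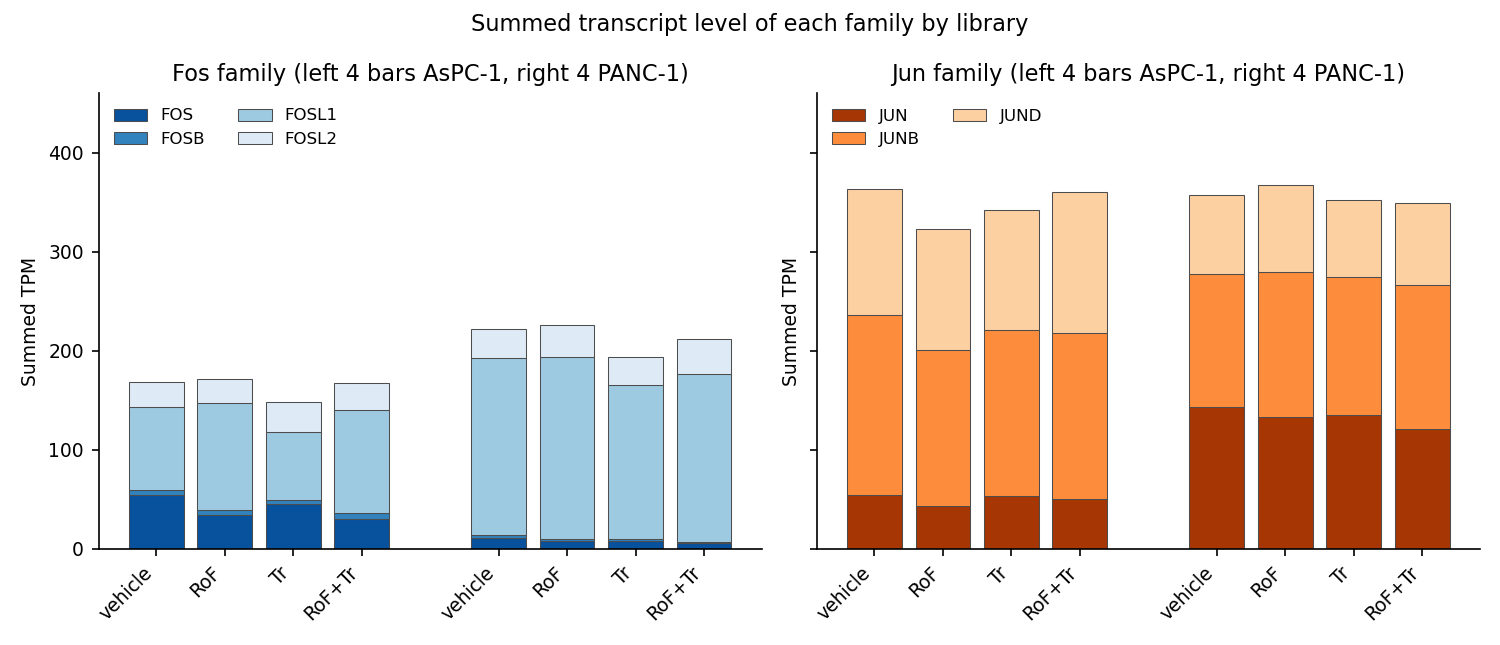
Summed TPM of the Fos genes and of the Jun genes in each library, stacked by gene, with 1 bar per library and axes starting at 0. FOSL1 fills 80.1% to 81.2% of the Fos bar in PANC-1 and 46.1% to 62.7% in AsPC-1.

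The ratio of FOSL1 to FOS RNA was higher in the libraries with roseoflavin. In AsPC-1 it was 1.52 with vehicle and 1.51 with trametinib, against 3.15 with roseoflavin and 3.48 with both. In PANC-1 it was 15.8 with vehicle, 19.6 with trametinib, 21.9 with roseoflavin and 29.0 with both. Such a ratio within a library does not depend on how the library was scaled. It was chosen for description after the values of both genes were known and carries no test.

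The lines differed at 6 of the 7 members (limma, 4 libraries against 4, Benjamini-Hochberg adjusted p under 0.05). FOS, FOSB, JUNB and JUND were higher in AsPC-1, and FOSL1 and JUN were higher in PANC-1. Each line had 1 library per treatment, so the errors measure the spread between these libraries and not between repeats of a treatment. Of all genes tested, 83.8% passed the same test, 62.3% higher in PANC-1 and 21.5% higher in AsPC-1, so 6 of 7 is near the background. Likewise the libraries of the 2 lines did not overlap at 6 of the 7 members and at 79.2% of all genes. FOS had the largest difference of the 7, PANC-1 minus AsPC-1 being -2.16 on the log2(TPM + 1) scale (SE 0.0746, limma adjusted p = 4.06e-07), a scale that understates differences of genes with low TPM. JUN differed by 1.39 (SE 0.0649, limma adjusted p = 1.67e-06) and FOSL1 by 0.94 (SE 0.0910, limma adjusted p = 7.12e-05). FOSB, JUND and JUNB differed by -1.12, -0.64 and -0.25, with SEs of 0.199, 0.0559 and 0.0566 and limma adjusted p of 0.00163, 4.05e-05 and 0.00522.

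FOSL2 differed by 0.19 (SE 0.0869, limma adjusted p = 0.0750) and did not pass. It passed without the trametinib library of AsPC-1, at 0.27 (limma adjusted p = 0.0202), and without that of PANC-1, at 0.28 (limma adjusted p = 0.00874). The median difference of all genes was 0.55, and it was 0.24 after rescaling to the genes outside the mitochondrial genome and 0.04 after quantile normalization. Rescaling left 80.6% of all genes called, 49.6% higher in PANC-1 and 31.0% higher in AsPC-1. The direction of FOSL2 flipped under both, to -0.19 and -0.30, and the last of these passed (limma adjusted p = 0.0136). The other 6 members kept their direction and passed under both, FOS at -2.57 and -2.67, JUN at 1.01 and 0.95, and FOSL1 at 0.55 and 0.54.

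**Figure D3:**
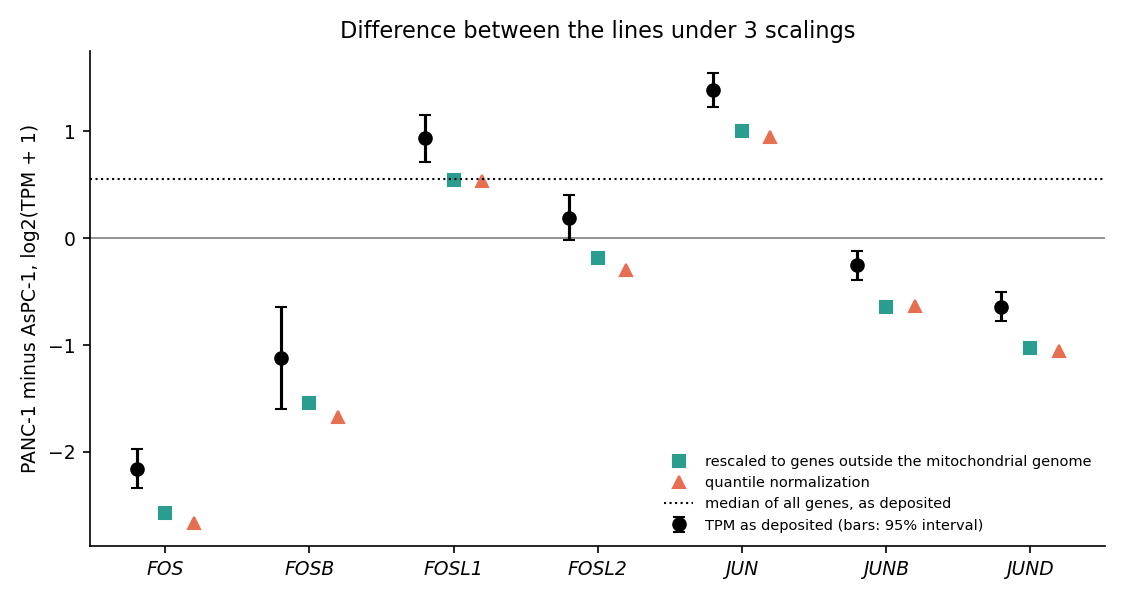
Difference between the lines, PANC-1 minus AsPC-1, on the log2(TPM + 1) scale for each member, as fitted over 8 libraries and with its 95% interval, beside the values under 2 other scalings; the dotted line is the median of all genes, 0.55. JUN and FOSL1 lie above 0 and FOS, FOSB, JUNB and JUND below 0 in each scaling, and FOSL2 changes sign.

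Roseoflavin left no member past the threshold, nor any other gene. With the 2 lines fitted together, 0 of 7 members had a limma adjusted p under 0.05 (0.0% of all genes), and 3 of 7 had an unadjusted p under 0.05 (7.1% of all genes). Those 3 were FOS, FOSL1 and JUN. FOS was lower with roseoflavin in 4 of 4 matched comparisons, by -0.67 and -0.58 for AsPC-1 and -0.38 and -0.39 for PANC-1 on the log2(TPM + 1) scale, without and with trametinib. Of all genes, 10.2% were lower in 4 of 4. The fitted difference of FOS was -0.51 (SE 0.0746, limma adjusted p = 0.551), and its p had rank 10 among the 19122 genes.

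FOSL1 was higher with roseoflavin in 4 of 4 matched comparisons, as were 4.91% of all genes. Its differences were 0.36 and 0.60 for AsPC-1 and 0.04 and 0.12 for PANC-1, and the fitted value was 0.28 (SE 0.0910, limma adjusted p = 0.660). JUN was lower in 4 of 4, with a fitted difference of -0.17 (SE 0.0649, limma adjusted p = 0.677), and it was at -0.10 without the roseoflavin library of AsPC-1. The sign counts of FOS, FOSL1 and JUN were the same after rescaling and after quantile normalization. JUND was higher in 3 of 4 (0.10, limma adjusted p = 0.745), and in 4 of 4 under each of those 2 scalings. JUNB was higher in 3 of 4 as deposited and in 2 of 4 under each of them. FOSB, FOSL2 and JUNB had fitted differences of -0.08, 0.06 and -0.0067.

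Within AsPC-1 alone, where 2 libraries with roseoflavin were set against 2 without and 1 residual degree of freedom was left, 0 of 7 members passed (0.0% of all genes) and 2 of 7 had an unadjusted p under 0.05 (7.51% of all genes). FOS differed by -0.63 (SE 0.0414, limma adjusted p = 0.651) and FOSL1 by 0.48 (SE 0.0858, limma adjusted p = 0.651). Within PANC-1, 0 of 7 passed (0.0%) and 4 of 7 had an unadjusted p under 0.05 (12.5%), namely FOS at -0.39, FOSB at -0.44, JUN at -0.13 and JUND at 0.12, each with a limma adjusted p of 0.398. With testing limited to protein-coding genes averaging 10 TPM or more, a choice made after the data were seen, FOS passed in each line, at a limma adjusted p of 0.0232 in AsPC-1 (0.411% of genes called) and 0.0383 in PANC-1 (2.03% of genes called). With the lines together it did not pass under that choice (limma adjusted p = 0.115).

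**Figure D4:**
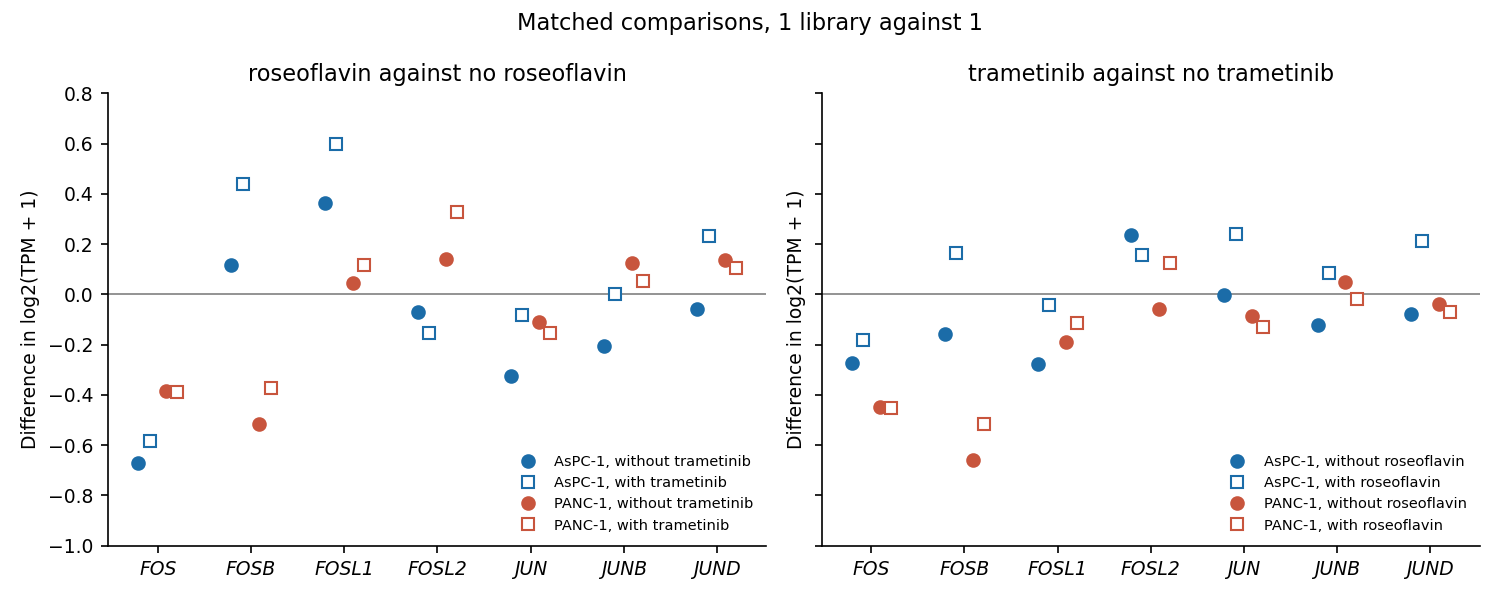
Difference in log2(TPM + 1) between libraries that differ in 1 compound only, for each member, with 4 points for roseoflavin and 4 for trametinib, by line and by presence of the other compound. For roseoflavin all 4 points of FOS and JUN are below 0 and all 4 of FOSL1 above 0; for trametinib all 4 points of FOS and of FOSL1 are below 0.

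Trametinib left 0 of 7 members past the threshold in the fit of both lines (limma, 0.0% of all genes), and 1 of 7, FOS, had an unadjusted p under 0.05 (4.91% of all genes). FOS was lower with trametinib in 4 of 4 matched comparisons, by -0.27 and -0.18 in AsPC-1 and by -0.45 in both PANC-1 comparisons, and 4.54% of all genes were lower in 4 of 4. Its fitted difference was -0.34 (SE 0.0746, limma adjusted p = 0.861), of rank 55 by p. FOSL1, which ERK signalling maintains in many carcinoma cells, was also lower in 4 of 4, by -0.28 and -0.04 for AsPC-1 and -0.19 and -0.11 for PANC-1. Its fitted difference was -0.15 (SE 0.0910, limma adjusted p = 0.861), and it was -0.075 without the trametinib library of AsPC-1, -0.097 without the vehicle library of PANC-1 and -0.23 without the combination library of AsPC-1. The differences of FOS and FOSL1 had these signs under all 3 scalings.

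FOSB differed by -0.29 with trametinib, with a wide error (SE 0.199, limma adjusted p = 0.864), and ran from -0.50 to -0.11 as each library was left out. Its 4 comparisons were -0.16 and 0.17 for AsPC-1 and -0.66 and -0.52 for PANC-1. FOSL2 differed by 0.12 (limma adjusted p = 0.864), from 0.04 to 0.20 as each library was left out. JUN, JUNB and JUND were within 0.01 of 0, with SEs of 0.0559 to 0.0649, and JUN and JUND changed sign with the scaling. Within AsPC-1, 0 of 7 members passed (limma, 0.0%) and 2 of 7, FOS at -0.23 and FOSL2 at 0.20, had an unadjusted p under 0.05 (8.73% of all genes). Within PANC-1, 0 of 7 passed (0.0%) and 4 of 7 had an unadjusted p under 0.05 (6.13% of all genes): FOSB at -0.59, FOS at -0.45, FOSL1 at -0.15 and JUN at -0.11, all with a limma adjusted p of 0.775.

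The combination gave the lowest FOS of each line. Against vehicle, FOS differed by -0.85 in the AsPC-1 library and by -0.84 in the PANC-1 library, and the fit gave -0.85 (SE 0.115, limma adjusted p = 0.718). No member passed, 0 of 7 (0.0% of all genes), and FOS alone had an unadjusted p under 0.05 (5.32% of all genes). FOSB was 0.28 above vehicle in AsPC-1 and 1.03 below it in PANC-1, a fitted difference of -0.37 (SE 0.297, limma adjusted p = 0.911). FOSL1 was 0.13 above vehicle (SE 0.133, limma adjusted p = 0.919). The interaction of the compounds, the departure of the combination from their sum on the log2 scale, was 0.04 for FOS (SE 0.163, limma adjusted p = 1.00) and flipped to -0.0049 after rescaling to genes outside the mitochondrial genome. Its 95% interval was -0.37 to 0.45. Across the 7 members 0 passed (0.0%) and 0 had an unadjusted p under 0.05 (2.8% of all genes).

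Set against the vehicle library of its own line, 1 library against 1 on the log2(TPM + 1) scale and without a test, FOS was at least 1.5-fold lower with roseoflavin in AsPC-1, the only 1 of the 7 members past that fold there (5.78% of all genes). It was again the only member past 1.5-fold with both compounds in AsPC-1 (6.15% of all genes). In PANC-1 the members past 1.5-fold were FOSB with trametinib (5.82%) and FOS and FOSB with both compounds (6.38%). With trametinib in AsPC-1 (5.86%) and with roseoflavin in PANC-1 (5.73%), 0 of 7 members were past it.

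Whether the compounds acted differently in the 2 lines was tested with an interaction term. For roseoflavin 0 of 7 members passed (limma, 0.0% of all genes), and 4 of 7 had an unadjusted p under 0.05 (11.6% of all genes). The response in PANC-1 minus that in AsPC-1 was -0.72 for FOSB (SE 0.156, limma adjusted p = 0.353), -0.40 for FOSL1 (SE 0.0993, adjusted p = 0.366), 0.34 for FOSL2 (SE 0.0906, adjusted p = 0.370) and 0.24 for FOS (SE 0.0671, adjusted p = 0.379). For trametinib 0 of 7 passed (0.0%), and 2 of 7 had an unadjusted p under 0.05 (9.7% of all genes), FOSB at -0.59 (limma adjusted p = 0.496) and FOS at -0.23 (adjusted p = 0.508).

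The other genes of the pathway were taken from lists of known partners, regulators and targets. Those lists were chosen with earlier results of these data known, so their counts are not an independent test. In each list the compounds left 0 genes past the threshold in the fits of both lines, as over all genes, whose median difference was -0.02 with roseoflavin and 0.02 with trametinib. Of 13 other leucine zipper partners 10 were tested, with medians of -0.0099 and 0.06. ATF3, a stress-induced partner of Jun, had the largest positive value with both compounds, 0.41 with roseoflavin (limma adjusted p = 0.704) and 0.25 with trametinib. With roseoflavin MAFF was at 0.18 and JDP2 and ATF2 at -0.08 each, and with trametinib ATF2 was at 0.12, BATF at -0.09 and MAFF at -0.04. The value of JDP2 averages opposite directions, lower with roseoflavin in AsPC-1 and higher in PANC-1, with and without trametinib. BATF was at 15.6 to 19.4 TPM in AsPC-1 but at 0.155 TPM or less in every PANC-1 library. ATF3 was at 2.91, 2.43, 3.48 and 4.66 TPM in AsPC-1 and 7.47, 13.5, 7.88 and 13.7 TPM in PANC-1 with vehicle, roseoflavin, trametinib and both. Roseoflavin gave higher values in 3 of the 4 matched comparisons of ATF3, and in PANC-1 both libraries with it were above both without it.

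Of 21 kinases and regulators upstream of AP-1, 19 were tested, with medians of 0.0053 with roseoflavin and 0.04 with trametinib. The extremes were small. With roseoflavin they were MAPK14, the p38α kinase, at -0.13, CREB1 at -0.10, the serum response factor SRF at 0.09 and the ERK1 gene MAPK3 at 0.08. With trametinib they were MAP2K7 at -0.12, MAP2K1, which encodes the trametinib target MEK1, at -0.07, and RPS6KA3 and ITCH at 0.11 each. RPS6KA3 was higher with trametinib in AsPC-1 and lower in PANC-1, with and without roseoflavin.

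Of 21 immediate-early companions of FOS and JUN 19 were tested, and with roseoflavin 13 of them were lower and 6 higher (57.8% of all genes were lower), with a median of -0.07 and 2 of 19 at an unadjusted p under 0.05 (7.1% of all genes), both near the background. EGR1, a zinc finger factor induced by ERK alongside FOS, had the largest negative value, -0.26 (SE 0.0651, limma adjusted p = 0.615). Its levels were 42.2, 36.9, 31.0 and 29.3 TPM in AsPC-1 and 37.2, 27.9, 30.3 and 23.0 TPM in PANC-1, so, as with FOS, vehicle was highest and the combination lowest in each line. The phosphatase genes DUSP1 and DUSP5 were at -0.15 and 0.24, and PPP1R15A was at 0.13. For DUSP1 the lines moved in opposite directions, with and without trametinib. It was at 17.1 TPM with vehicle and 11.9 with roseoflavin in AsPC-1, and at 73.3 and 81.4 TPM in PANC-1. DUSP5 was low in AsPC-1, at 0.603 to 1.14 TPM. With trametinib 10 were higher and 9 lower (59.0% of all genes were higher), with a median of 0.03 and 4 of 19 at an unadjusted p under 0.05 (4.91% of all genes). EGR1 was at -0.33 (limma adjusted p = 0.861) and IER3 at -0.24, whereas NR4A1 and BTG2 were at 0.20 and 0.19.

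Of 10 genes of ERK output 9 were tested. With trametinib all 9 had negative values in the fit of both lines (41.0% of all genes), with a median of -0.11. An unadjusted limma p under 0.05 was found for 3 of 9 (4.91% of all genes). Fitted alone, AsPC-1 had 7 negative and 2 positive values (7851 of all 19122 genes were negative). PANC-1 alone had 8 negative and 1 positive (8340 of 19122 were negative). Among the 9, DUSP4 was at 43.6 to 49.2 TPM in AsPC-1 but near 0 in PANC-1, at 0.071 to 0.143 TPM. DUSP6, the phosphatase that ERK induces against itself, was at -0.38 (limma adjusted p = 0.564), followed by SPRY4 at -0.28. With roseoflavin the median was 0.01, DUSP6 and SPRY2 were at -0.14 and -0.07, and the cyclin D1 gene CCND1 and EPHA2 at 0.13 and 0.05. Of 22 known AP-1 targets 17 were tested, with medians of 0.02 with roseoflavin and -0.07 with trametinib. With roseoflavin 12 were higher and 5 lower (42.2% of all genes were higher), and with trametinib 5 were higher and 12 lower (41.0% of all genes were lower). An unadjusted limma p under 0.05 was found for 0 of 17 with roseoflavin (7.1% of all genes) and 2 of 17 with trametinib (4.91% of all genes). HMGA1 was at 0.14 with roseoflavin, and MT2A and AXL at -0.16 and -0.09. The values of MT2A and AXL average opposite directions. Both genes were lower with roseoflavin in AsPC-1 and higher in PANC-1, with and without trametinib. MT2A was at 41.5 TPM with vehicle and 28.8 with roseoflavin in AsPC-1, and at 666 and 809 TPM in PANC-1. With trametinib HMGA1 was at -0.20 and the urokinase gene PLAU at -0.13, and EZR and VEGFA were at 0.07 and 0.05.

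**Figure D5:**
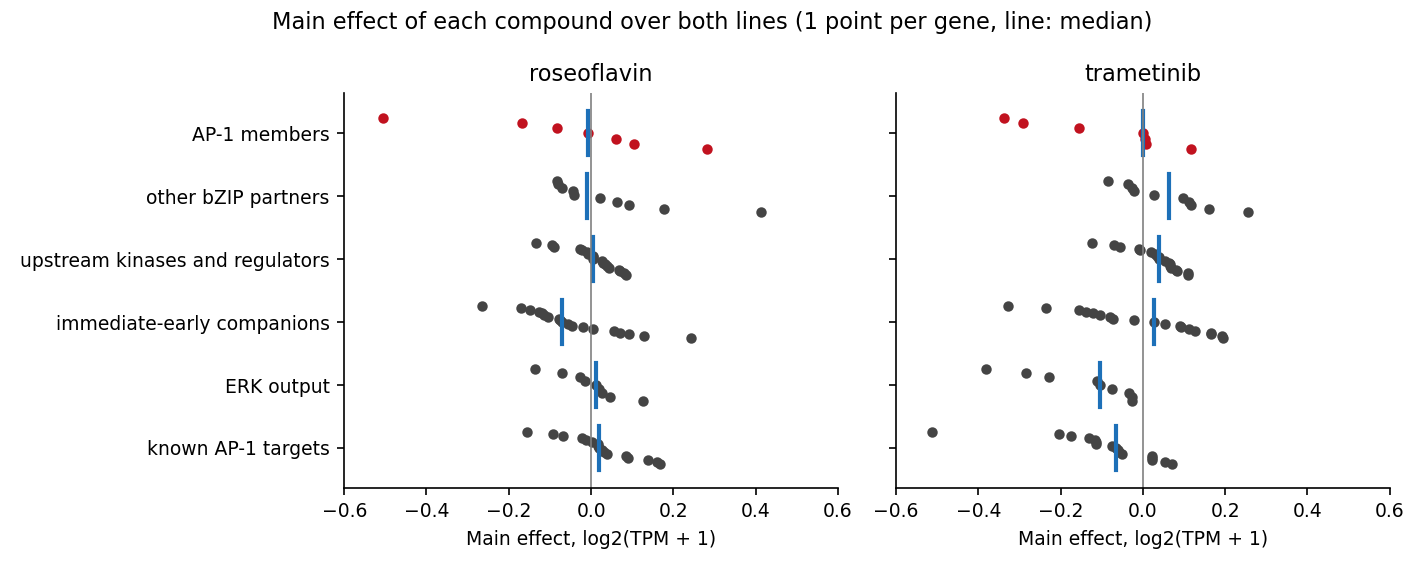
Fitted difference in log2(TPM + 1) with roseoflavin and with trametinib (8 libraries, both lines) for each tested gene of the AP-1 family and of 5 related lists, 1 point per gene, with a blue line at the median of each list and a grey line at 0. All 9 tested genes of ERK output lie below 0 with trametinib, and FOS has the lowest value of the AP-1 family with each compound.

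Between the lines most genes of these lists differed, as most genes did. The limma test was passed by 9 of 10 partners (7 higher in PANC-1), 16 of 19 upstream genes (11 higher in PANC-1), 17 of 19 immediate-early genes (8 higher in PANC-1), 9 of 9 genes of ERK output (6 higher in PANC-1) and 16 of 17 targets (11 higher in PANC-1), against 83.8% of all genes. BATF and DUSP4 reached 1 TPM in AsPC-1 only, and MAP2K4 and the target MMP9 in PANC-1 only. The filter let these genes in through the line where they are high, so their line differences are description only. Too many genes passed to name them all. PANC-1 minus AsPC-1 was -4.10 for BATF, -0.80 for MAFF, 1.48 for MAFG and 1.41 for JDP2 among the partners. Among the upstream genes it was -0.56 for RPS6KA1, -0.36 for MAP2K2 and 1.94 for MAP2K1. Among the immediate-early genes it was -2.79 for KLF2, -2.50 for KLF4, 3.46 for DUSP5 and 2.93 for CCN1. In ERK output it was -5.42 for DUSP4, -3.32 for DUSP6, 2.06 for ETV5 and 1.39 for SPRY4. Among the AP-1 targets it was -5.79 for tissue factor (F3), -3.19 for the urokinase receptor PLAUR and 4.34 for MT2A. MAP2K4, a kinase that activates JNK, was at 13.9 to 15.4 TPM in PANC-1, and each of the 4 AsPC-1 libraries lists it at 0.

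The genes most alike to each member across treatments were found by Pearson correlation of log2(TPM + 1), centred within each line, over the 8 libraries and 7907 candidate mRNAs. For FOS they were CREBZF (0.945), CDK3 (0.941) and SLFN13 (0.938). For FOSL1 they were C19orf53 (0.984), GART (0.973) and HES2 (0.966), and for JUN EXOC3 (0.975), GEMIN7 (0.963) and DBNDD2 (0.951). HES2 was at only 0.121 to 0.277 TPM in AsPC-1, near 0, and was a candidate through its 26.5 to 27.5 TPM in PANC-1. FOSB was most like COX17 (0.971), FOSL2 most like TLCD2 (0.987), JUNB most like C1orf174 (0.963) and JUND most like RPS2 (0.969). Within the family the same measure was 0.730 for FOS with JUN and -0.456 for FOS with FOSL1. These correlations share 8 libraries and their scaling, were picked as the highest of many, and describe these libraries only.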

How the data were processed

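RNA was measured in 8 libraries, 1 for each line and treatment, made with a stranded mRNA kit per the labels' protocols. The authors deposited 1 table of TPM per gene. STAR 2.7.3a, HTSeq 2.0.2 and hg38 are named in the submitters' processing notes; the annotation and the strand setting of the counting are not given in the sources used here, so reads shared by FOSB, FOSL2 or JUNB with a gene that overlaps them are uncertain. Blank lines of the table (985926) were dropped.

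From the deposited TPM, log2(TPM + 1) was computed, the 19122 genes that reached 1 TPM in 2 libraries were kept, and limma 3.58.1 under R 4.3.3 was used for two-sided tests (lmFit, then eBayes with trend=TRUE), adjusted by the Benjamini-Hochberg method over all genes kept at a threshold of 0.05. Main effects and the line difference used all 8 libraries with the line and both compounds as additive terms. Interactions were added terms, the combination was fitted with treatment as 4 levels and the line as a block, and each line was also fitted alone. No group has replicates, so the lines and the other compound stand in for them and the errors measure the spread between these libraries. Depth is unknown. The script was tested on simulated data.

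All 7 members are named. From each list, the 2 largest positive and 2 largest negative values of genes averaging 5 TPM or more were to be named, with any gene that passed; so many passed for the line difference that the others are given as counts, and 1 gene that the rule names is not reported here. For likeness the 3 genes with the highest correlation, among those averaging 10 TPM or more, were taken for FOS, FOSL1 and JUN and the first for the others. The members and the lists were chosen with earlier results of these data known. Alternatives were quantile normalization, rescaling to genes outside the mitochondrial genome, other filters, no block for the line, a smaller pseudocount (0.1) and leaving out each library. Gene positions are from GENCODE release 29 on GRCh38 (hg38), and promoters from RefSeq, GRCh38.p14. Python 3.11.15 was used for tables and figures.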

Additional observations from a re-analysis of the deposited data

Results flagged for a closer look

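With roseoflavin FOSB moved in opposite directions in the 2 lines. Its 2 matched comparisons in AsPC-1 were 0.12 and 0.44, whereas PANC-1 had -0.52 and -0.37 on the log2(TPM + 1) scale, and PANC-1 minus AsPC-1 was -0.72 (SE 0.156). The limma interaction test did not pass (adjusted p = 0.353), and FOSB was at 1.07 to 6.32 TPM, where 1 library can decide a value.

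FOSL2 had the opposite pattern, with -0.07 and -0.15 for AsPC-1, and PANC-1 at 0.14 and 0.33. PANC-1 minus AsPC-1 was 0.34 (SE 0.0906), and the limma interaction test did not pass (adjusted p = 0.370). FOSB and FOSL2 were flagged for these opposite signs, so their interaction values rest on the same values that picked them. An unadjusted p under 0.05 in that limma test was found for 11.6% of all genes.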

How the results depend on the processing

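Over 755 alternatives for 77 single values of members, 717 kept direction and side of the threshold. Of 125 alternatives for counts, 122 were unchanged or stayed within 1.5 times the reported count. Most of these counts were 0 members past the threshold and stayed at 0, so that share says little about stability. FOS with roseoflavin in both lines ran from -0.57 to -0.44 (limma adjusted p 0.115 to 1.00) and with trametinib from -0.41 to -0.28 (0.599 to 1.00). With protein-coding genes averaging 10 TPM or more, chosen after seeing the data, 1 member, FOS, passed for roseoflavin in AsPC-1 and 1 in PANC-1, where 0 had passed over all genes, and FOSL2 passed for the line difference at 0.19; fewer genes are tested there, and FOSB is not among them. With a pseudocount of 0.1, also chosen after seeing the data, 1 member was past 1.5-fold with roseoflavin in PANC-1.

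Quantile normalization and rescaling outside the mitochondrial genome turned the direction of JUN with trametinib (-0.0085 and -0.012), JUND with trametinib (-0.021 and -0.012), FOSL2 between lines (-0.30 and -0.19), JUND for line by roseoflavin (-0.00079 and -0.027) and FOSB with trametinib in AsPC-1 (-0.0062 and -0.016). Quantile normalization alone turned JUNB for the interaction of the compounds (-0.0052) and with trametinib in PANC-1 (-0.0060), and rescaling alone FOS for that interaction (-0.0049). The cause was not tested.

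Leaving out each library in turn, values that turned ran from -0.062 to 0.048 for JUN, -0.046 to 0.053 for JUNB and -0.049 to 0.032 for JUND with trametinib; from -0.29 to 0.10 for FOSB, -0.025 to 0.14 for FOSL2 and -0.044 to 0.047 for JUNB with roseoflavin; and from -0.84 to 0.094 for FOSB, -0.031 to 0.28 for FOSL1 and -0.13 to 0.11 for JUNB with both compounds. FOSB turned without the PANC-1 vehicle or combination library, and FOSL1 without the AsPC-1 combination library. Values that kept their direction and moved by over 1.5 times ran, with trametinib, from -0.50 to -0.11 for FOSB (lowest without the AsPC-1 combination library, highest without PANC-1 vehicle), -0.23 to -0.075 for FOSL1 and 0.042 to 0.20 for FOSL2 (without AsPC-1 or PANC-1 trametinib); with roseoflavin, from -0.22 to -0.10 for JUN and 0.057 to 0.16 for JUND; and with both, from -0.26 to -0.064 for JUN, 0.073 to 0.28 for FOSL2 and 0.028 to 0.19 for JUND. FOSL2 between lines ran from 0.14 to 0.28, and 6 to 7 members passed there. No paired analysis was possible because each group has 1 library and the labels carry no replicate numbers; libraries are matched only by line, which is a term in the fits, and without it FOS with roseoflavin was at -0.51 (limma adjusted p = 1.00). TPM keeps no depth, so counting error, largest for FOSB, could not be given.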

Other observations

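MMP1, the interstitial collagenase and a classical AP-1 target, has too low a mean for the naming rule and is given here because its values were seen. It was at 1.44, 1.77, 0.837 and 0.626 TPM in AsPC-1 and at 3.21, 3.82, 1.83 and 2.92 TPM in PANC-1 with vehicle, roseoflavin, trametinib and both. It was lower with trametinib in all 4 matched comparisons, as were 4.54% of all genes. Its fitted difference was -0.51 on the log2(TPM + 1) scale (SE 0.113, limma adjusted p = 0.861), and at these levels depth limits its precision.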
